A study of Mesocricetus auratus with 6 samples.

Results

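The interferon response genes and the ISG15 pathway were read in the day 5 uterus of the pregnant Syrian golden hamster (Mesocricetus auratus), an untreated animal of unstated age. The members were 50 gene symbols, and every probe set that the platform annotation assigns to exactly 1 of them was taken. This gave 71 probe sets for 48 genes, out of 22215 probe sets and 11963 genes on the array. STAT2 and IFI30 were matched to no probe set and were not analysed here.

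Tissue pieces holding an implanting embryo (implantation sites, 3 arrays) were compared with pieces lying between embryos (interimplantation sites, 3 arrays). The series' design text mentions 3 animals, but the labels tie no array to an animal, so p-values describe the spread between arrays, which the labels call biological replicates. Each piece is a mixture of epithelium, stroma, muscle, vessels and leukocytes, so fewer cells of a type and less RNA per cell cannot be told apart. The probes were designed on human transcripts, and a low RMA value (background-corrected and normalized log2 brightness) may mean either little transcript or a poor match to the hamster sequence.

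Interferons are secreted proteins that bind paired receptor chains at the cell surface. Type I interferons use IFNAR1 and IFNAR2 and type II interferon uses IFNGR1 and IFNGR2. Kinases of the JAK family on these receptors phosphorylate STAT proteins, which enter the nucleus with or without IRF9 and switch on interferon-stimulated genes. One of these, ISG15, encodes a ubiquitin-like protein that the enzymes UBA7, UBE2L6 and HERC5 attach to other proteins and that USP18 removes. In several mammals uterine ISG15 rises in early pregnancy, and in ruminants a trophoblast interferon drives this rise.

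None of the 71 member probe sets passed an adjusted p of 0.05 in limma's test, against 1.06% of all probe sets (235 of 22215). By genes, read at the brightest probe set, 0 of 48 members passed, against 1.24% of all genes. At an unadjusted p under 0.05 there were 8 member probe sets, 5 higher and 3 lower at implantation sites, or 11.3% against 10.5% of all probe sets. The groups did not overlap in 11 member probe sets, or 15.5%, against 16% of all. These shares lie near the background. The median difference was −0.02 over the member probe sets and −0.01 over all probe sets (log2, implantation minus interimplantation), and the median size of a difference was 0.08 and 0.07. The 95% interval of the difference lay inside 1.5-fold either way for 70 of the 71 member probe sets, the exception being IRF2, and for 97.7% of all probe sets. Such intervals describe probe set brightness, which can understate a change in RNA where human probes match the hamster transcript poorly.

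**Figure D1:**
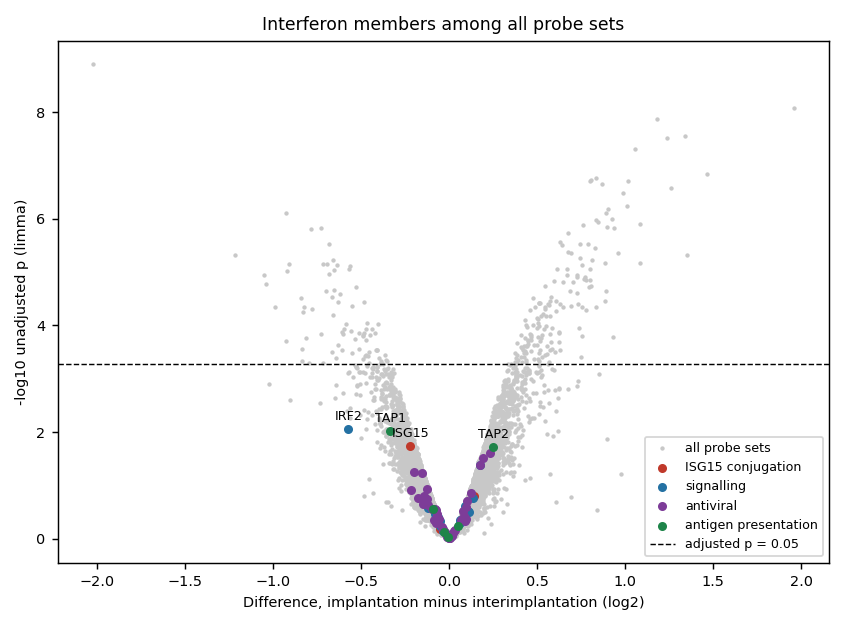
Difference between implantation and interimplantation sites (x axis, log2) against −log10 of limma's unadjusted p (y axis), for all 22215 probe sets (grey) and the 71 member probe sets, coloured by class. The dashed line marks the largest p that passed the adjusted threshold, and 0 member points lie above it.

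ISG15 and its 3 measured partner enzymes did not move together. ISG15, the modifier itself, was at 5.21, 5.43 and 5.41 on the implantation arrays and at 5.56, 5.54 and 5.61 on the interimplantation arrays. All 3 implantation values were below all 3 interimplantation values. The group means were 5.35 ± 0.12 and 5.57 ± 0.03 (SD, n = 3 arrays), a 1.17-fold lower level (log2 −0.22 ± 0.08 SE, 95% interval −0.40 to −0.04, unadjusted p = 0.0186, limma adjusted p = 0.321). Without implantation array 1 the difference was −0.15 (limma unadjusted p = 0.0756). Without any other single array the unadjusted p in limma's test was 0.0170 to 0.0522. A rise of ISG15 RNA at implantation sites over interimplantation sites was thus not seen at this probe set. Both groups came from the pregnant uterus, so a rise common to both kinds of site could not appear in this comparison.

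UBE2L6, the enzyme that carries ISG15 to its ligase, was at 4.98, 4.85 and 4.90 on implantation arrays and at 5.20, 4.84 and 4.71 on interimplantation arrays. The interimplantation values spanned the implantation ones (log2 −0.01 ± 0.11 SE, limma adjusted p = 0.986). HERC5, the main human ligase for ISG15, was at 3.49, 3.70 and 3.67 against 3.46, 3.64 and 3.92, which overlap widely (log2 −0.05 ± 0.11 SE). The hamster RefSeq table held no gene of the symbol HERC5 but held Herc6, and the HERC6 probe set read 3.56 and 3.57 in the group means. USP18, the protease that releases ISG15, was at 3.76, 3.54 and 3.85 against 3.49, 3.65 and 3.60. It was higher in the mean by 0.14 ± 0.09 SE with overlapping groups (95% interval −0.06 to 0.34, limma adjusted p = 0.662). HERC5 and USP18 were below the median brightness of all probe sets, 4.19, and ISG15 and UBE2L6 above it.

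**Figure D2:**
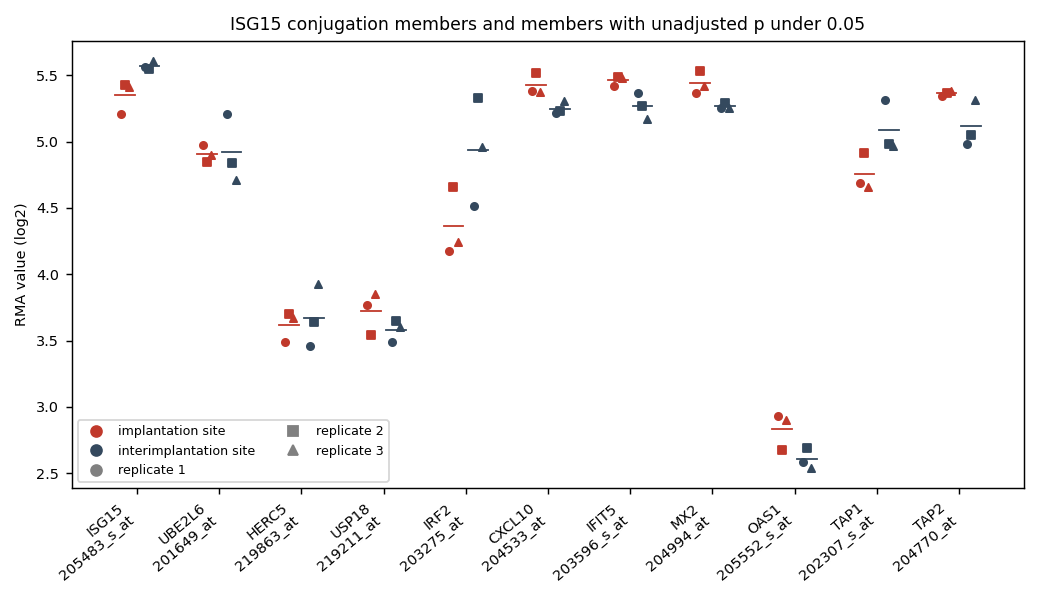
RMA values (y axis, log2) on each array for the 4 ISG15 conjugation members and the 7 other member probe sets with an unadjusted p under 0.05. Symbols are single arrays and short lines are group means (n = 3), and the groups stand apart in ISG15, CXCL10, IFIT5, MX2, TAP1 and TAP2 but overlap in IRF2 and OAS1.

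Receptor chains and their kinases showed differences no larger than 0.13. IFNAR1 read 4.44 ± 0.02 at implantation and 4.43 ± 0.05 at interimplantation sites (SD, n = 3), and the 2 probe sets of IFNAR2 were at −0.08 and −0.06. The type II chains were close to level, with IFNGR1 at 0.09 and 0.06 and IFNGR2 at 0.13 ± 0.09 SE. The kinases JAK2 (−0.06 and −0.01) and TYK2 (−0.05) were slightly lower. All 9 of these intervals stayed within 1.5-fold, and the smallest limma adjusted p among them was 0.674 (IFNGR2).

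Of the transcription factors, IRF2 had the largest difference of all members. IRF2 competes with IRF1 at shared promoter sites and often represses. Its values were 4.18, 4.66 and 4.24 at implantation sites and 4.51, 5.33 and 4.96 at interimplantation sites. Implantation array 2 lay above interimplantation array 1, so the groups overlapped. The means were 4.36 ± 0.26 and 4.93 ± 0.41 (SD, n = 3), a 1.49-fold lower level (log2 −0.57 ± 0.18 SE, 95% interval −0.97 to −0.18, unadjusted p = 0.00860, limma adjusted p = 0.240). Interimplantation array 1 held the low value of its group and array 2 the high one. Without array 1 the difference was −0.79 and passed (limma adjusted p = 0.0337), and without array 2 it was −0.38 and did not (0.461). Without any other single array the adjusted p was 0.145 to 0.512. IRF1, an activator induced by type II interferon, read 5.77 ± 0.06 and 5.86 ± 0.09 (log2 −0.09). IRF7, which drives interferon alpha genes, was at −0.12 and IRF9, the DNA-binding partner of STAT dimers, at 0.11, neither past an unadjusted p of 0.05.

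The 3 chemokines of this class recruit CXCR3-bearing lymphocytes. CXCL10 was at 5.38, 5.52 and 5.37 on implantation arrays and 5.21, 5.23 and 5.30 on interimplantation arrays. The groups did not overlap, but the difference was 1.13-fold (log2 0.18 ± 0.08 SE, unadjusted p = 0.0406, limma adjusted p = 0.444). CXCL9 was at 0.11 ± 0.10 SE with overlapping groups. CXCL11 was dim at both probe sets, with means over all arrays of 2.32 and 2.09, and its differences were −0.04 and 0.06.

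The antiviral effectors made up 44 probe sets of 28 genes, and 3 of these probe sets, in IFIT5, MX2 and OAS1, had an unadjusted p under 0.05 (6.82%, against 10.5% of all probe sets). IFIT1, IFIT2 and IFIT3, which bind viral RNA, were nearly level, at −0.01, −0.00 and 0.00, with 95% intervals reaching from −0.17 to 0.17. For IFIT2 the 3 implantation values were 4.87, 5.04 and 4.95 and the interimplantation values 4.95, 4.98 and 4.93. IFIT5 differed between its probe sets. At its brighter probe set it read 5.42, 5.49 and 5.48 against 5.37, 5.27 and 5.17, higher by 0.19 ± 0.08 SE (limma adjusted p = 0.397). At the dimmer one it read 3.47, 3.49 and 3.57 against 3.60, 3.58 and 3.58, lower by 0.08, and the groups stood apart in opposite directions at the 2 probe sets. The hamster table held no gene of the symbol IFIT5.

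Neither of the MX GTPases, which trap viral nucleocapsids, passed the threshold. MX2 was at 5.37, 5.53 and 5.42 against 5.25, 5.29 and 5.26, with every implantation value higher (log2 0.17 ± 0.07 SE, unadjusted p = 0.0416, limma adjusted p = 0.446). MX1 was at 3.84, 4.09 and 4.03 against 4.03, 4.27 and 4.28, at −0.20 ± 0.09 SE with overlapping groups (unadjusted p = 0.0550, limma adjusted p = 0.490). Of the oligoadenylate synthetase family, OAS1, OAS2 and OAS3 make the second messenger that activates RNase L. OAS1 disagreed between its probe sets: the dim one read 2.93, 2.67 and 2.90 against 2.59, 2.69 and 2.54 (log2 0.23 ± 0.09 SE, limma adjusted p = 0.363), and the brighter one was at −0.15 ± 0.10 SE. OAS2 (−0.09 and −0.02), OAS3 (−0.03) and OASL (−0.06 and 0.03) had differences under 0.1.

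The other antiviral members stayed within 0.22 either way. Among the guanylate-binding proteins GBP1 (−0.07 and −0.08) was among the dimmest members, with means of 2.24 and 2.16, and GBP2 was at −0.01. The double-stranded RNA editing enzyme ADAR was at 0.10 with non-overlapping groups, 3.63, 3.74 and 3.66 against 3.54, 3.60 and 3.58, and the kinase EIF2AK2 was at 0.09 and −0.01. TRIM21, a cytosolic antibody receptor, was at −0.12, and TRIM22 at −0.16, both unadjusted p above 0.05. The groups also stood apart, with lower values at implantation sites, in TRIM22, in the dimmer probe set of GBP1 (−0.08) and in 1 probe set of SP100 (−0.13). The nuclear body proteins SP100 and SP110 had 5 and 4 probe sets, whose differences ran from −0.22 to 0.08 and from −0.10 to 0.08.

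Restriction factors and the remaining induced proteins were similar. BST2 (tetherin, which holds budding virions) was at −0.18 ± 0.12 SE, RSAD2 (viperin) at −0.15 ± 0.12 SE and SAMHD1, which depletes deoxynucleotides, at −0.00. RSAD2 varied most within a group of these 3, with 2.86, 3.39 and 3.10 on the implantation arrays. IFI6 was at 0.12, IFI27 at −0.04, IFI35 at −0.13, IFI44L at −0.13 and XAF1 at 0.02. IFI44 was at 0.01 and 0.09 and IFI16, a nuclear DNA sensor, at −0.02, 0.09 and −0.07. None of these 10 probe sets had an unadjusted p under 0.05 in limma's test or an interval reaching 1.5-fold.

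**Figure D3:**
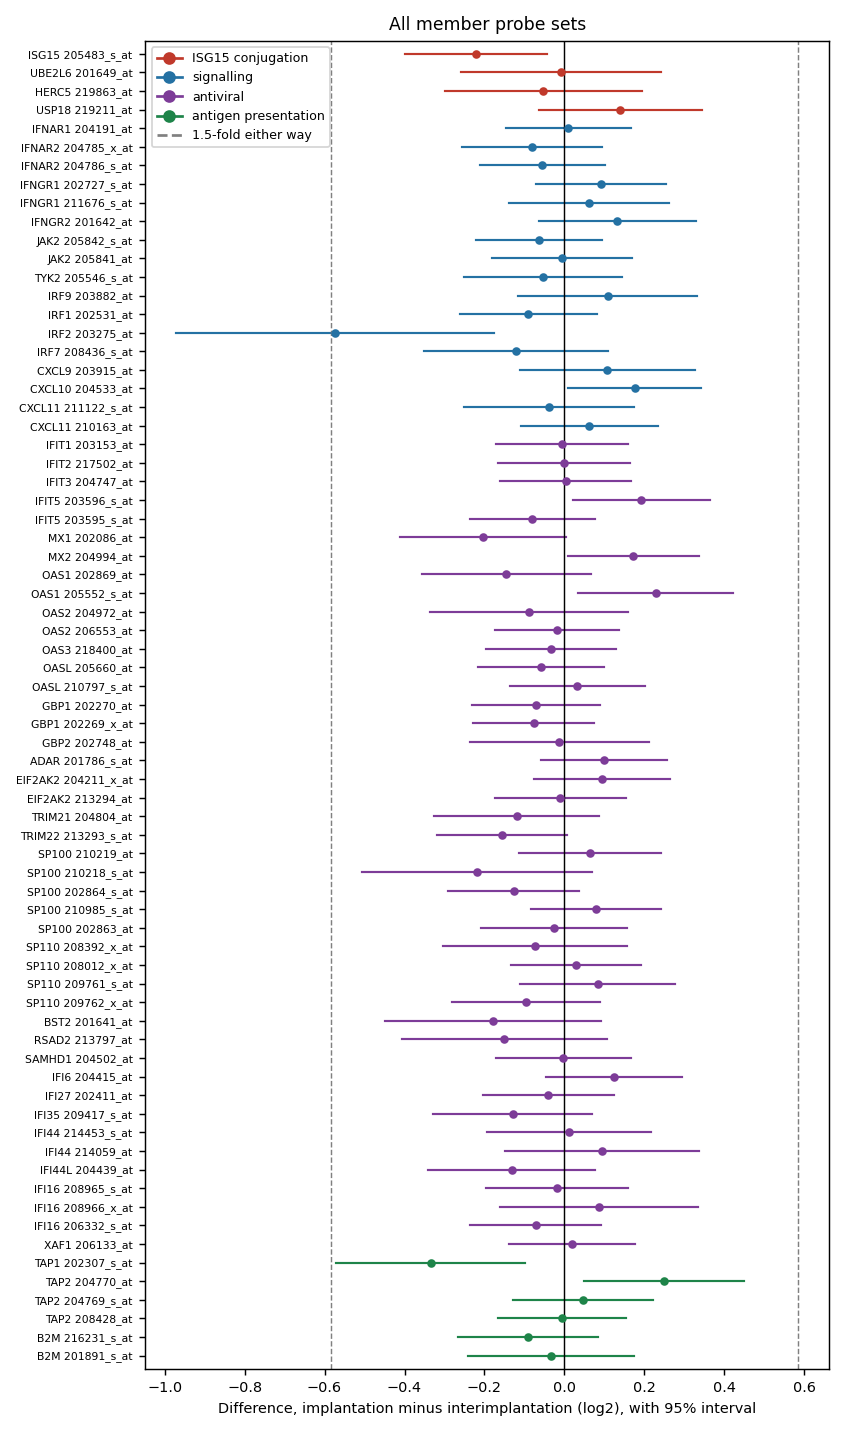
Difference between the groups (x axis, log2, implantation minus interimplantation) with limma's 95% interval for each of the 71 member probe sets, coloured by class; dashed lines mark 1.5-fold either way. Only the interval of IRF2 crosses a dashed line.

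In antigen presentation, 0 of 6 probe sets passed the adjusted threshold in limma's test, against 1.06% of all probe sets. An unadjusted p under 0.05 was found in 2 of the 6, 1 lower and 1 higher (33.3%, against 10.5% of all). TAP1, a chain of the transporter that brings peptides to class I molecules, was at 4.68, 4.91 and 4.66 at implantation sites and 5.31, 4.98 and 4.96 at interimplantation sites. The groups did not overlap, and the mean was 1.26-fold lower (log2 −0.33 ± 0.11 SE, 95% interval −0.57 to −0.10, unadjusted p = 0.00950, limma adjusted p = 0.250). Interimplantation array 1 held the highest value, and without it the difference was −0.22 (adjusted p = 0.423). TAP2, whose product forms the transporter with that of TAP1, was at 5.35, 5.37 and 5.38 against 4.98, 5.05 and 5.31 at its brightest probe set, which was 1.19-fold higher (log2 0.25 ± 0.09 SE, limma adjusted p = 0.323). The other probe sets of TAP2 were at 0.05 and −0.01. B2M, the light chain of class I molecules, was at −0.09 and −0.03, with overlapping groups at both.

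Of the 16 members with several probe sets, 9 had differences of both signs. Brightness also varied between probe sets of 1 gene, by a median of 1.37 and by up to 2.26 (EIF2AK2, 2.12 and 4.39). RefSeq's annotation of the hamster assembly BCM_Maur_2.0 listed the symbols of 34 of the 48 genes, whose median level was 4.69. The 14 symbols it did not list had a median level of 3.77, and over all genes these medians were 4.64 and 4.27. Among the 14 were bright genes such as IFIT5 (5.36), MX2 (5.35) and OASL (5.29).

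Negative differences were somewhat more frequent among members than among all probe sets, and this excess moved with the arrays used and the normalization. Of the 71 probe sets, 44 had a negative difference (62%, against 53.6% of all probe sets), and without implantation array 1 this was 34 (47.9%, against 51.9%). With all 6 arrays the share was 53.5% (against 50.7%) after cyclic loess and 54.9% (against 51.2%) after repeated quantile normalization, and without interimplantation array 1 it was 54.9% (against 53.1%). The excess stayed at the brightest probe set per gene, with 31 of 48 negative (64.6%, against 52.4% of all genes). The share was 62.5% (against 53.3%) after averaging the probe sets of each gene and 62% (against 53.7%) without implantation array 2. The mean level over the 48 genes was 4.25 on implantation array 1 and 4.33 to 4.36 on the other 5. Implantation array 1 was the lowest of the 6 arrays in 17 of 48 members (35.4%), 13 of them antiviral genes, and in 23.6% of all genes. Over all genes its mean was 4.51, the lowest of 4.51 to 4.53.

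**Figure D4:**
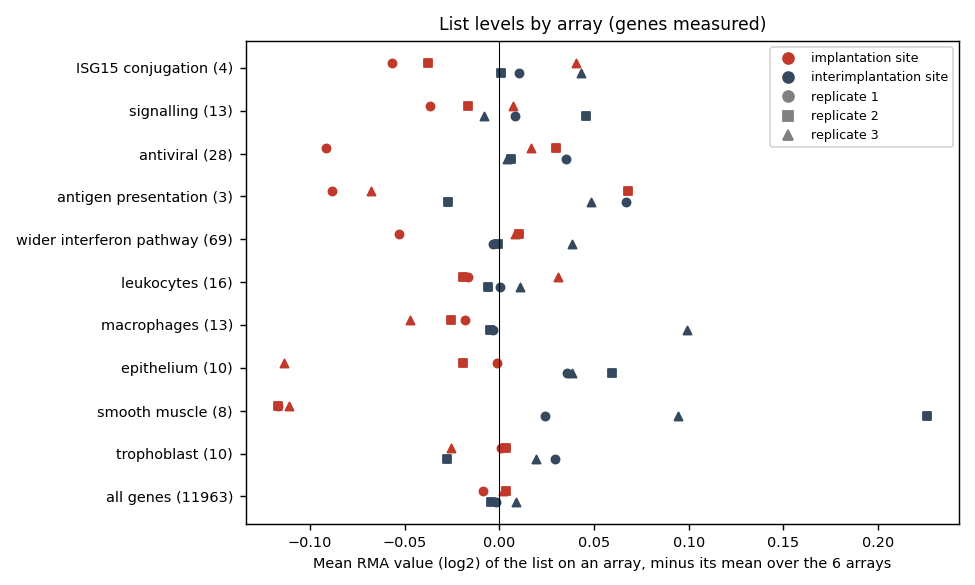
Mean RMA value of each list on each array minus the list's mean over the 6 arrays (x axis, log2), with the number of measured genes in brackets; symbols are arrays. The antiviral class is lowest on implantation array 1. The list means of the macrophage, epithelial and smooth muscle markers are each lower on all 3 implantation arrays than on any interimplantation array. Single markers within each of these lists differ in both directions. The endothelial list, not drawn here, separates likewise (4.34 to 4.36 against 4.38 to 4.48).

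Beyond the members, 83 further genes of the interferon pathway were listed and 69 were measured, by 128 probe sets. Of these probe sets 0 rose and 2 fell (1.06% of all probe sets passed), in PTPN11 and HLA-B, and 11 had an unadjusted p under 0.05 (8.59%, against 10.5% of all). Interferon ligands themselves gave 14 probe sets, 0 with an unadjusted p under 0.05 in limma's test. IFNB1 was at 0.08 ± 0.07 SE and IFNA2 at −0.11 ± 0.08 SE, and the brightest, IFNA17, was level at 6.24 and 6.25. Sensors of viral RNA such as IFIH1 (−0.10) and ISG15-related ligases such as TRIM25 (−0.09) and ARIH1 (−0.04 at its brightest probe set) likewise had no unadjusted p under 0.05.

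PTPN11, a phosphatase that acts downstream of many receptors, fell at 1 of 5 probe sets, from 3.54 to 3.13 (log2 −0.41 ± 0.08 SE, limma adjusted p = 0.0345). The other 4 were between −0.07 and 0.05, and the call was lost whichever array was left out (adjusted p up to 0.124). Other signalling genes with an unadjusted p under 0.05 were IRF8, a factor of myeloid cells, at 0.24 ± 0.10 SE, and PIAS1, an inhibitor of STAT proteins, at −0.20 ± 0.09 SE at 1 of 3 probe sets. Among effectors TRIM14 was at 0.18 ± 0.07 SE at 1 of 4 probe sets (limma adjusted p = 0.393).

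Class I heavy chains present the peptides that the transporter delivers. HLA-B fell at its brightest probe set, from 6.49 to 6.13 (log2 −0.36 ± 0.07 SE, limma adjusted p = 0.0398), and when single arrays were left out the call held only without interimplantation array 1 (adjusted p up to 0.155). Its other probe sets were at −0.21 and 0.11. HLA-F was at −0.33 ± 0.10 SE and −0.30 ± 0.08 SE at 2 of its 3 probe sets (limma adjusted p = 0.195 and 0.146) and at 0.14 at the third. HLA-C was at −0.19 ± 0.08 SE at its brightest probe set. Grouped after their values were seen, the 17 class I heavy chain probe sets had 13 negative differences (76.5%, against 53.6% of all probe sets), with a median of −0.11. At an unadjusted p under 0.05, 4 of them were lower and 0 higher (23.5%, against 10.5%). Human class I genes are near copies of one another, so these probe sets can read the same hamster transcripts and are not separate evidence; no hamster gene carries these symbols. PDIA3, a chaperone of class I loading, was at 0.39 ± 0.11 SE (limma adjusted p = 0.186), the chaperone CALR was at −0.00 at its brightest probe set, −0.06 at the next and 0.18 ± 0.08 SE at a dim one, and the immunoproteasome subunits PSMB8, PSMB9 and PSMB10 were at 0.22, −0.01 and −0.01.

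Levels of cell type markers are given beside these values, and their part in them was not tested. Of 16 measured leukocyte markers 0 passed and 0 had an unadjusted p under 0.05 in limma's test, with list means of 4.51 to 4.56 on implantation and 4.53 to 4.54 on interimplantation arrays; the pan-leukocyte marker PTPRC was at −0.05. Macrophage markers (13) averaged 4.40 to 4.43 and 4.44 to 4.54. Of these 1 fell, SPI1 (log2 −0.49, limma adjusted p = 0.0372), a call that held in 1 of 6 analyses leaving out an array. FCER1G was at −0.24 (limma unadjusted p = 0.0118). Differences were positive in 7 of the 13 and negative in 6, with ITGAM at 0.13 and CD163 at 0.11. Epithelial markers (10) averaged 4.21 to 4.33 and 4.36 to 4.39, with 0 past the threshold and 2 lower at an unadjusted p under 0.05, KRT8 and KRT19. Smooth muscle markers (8) averaged 5.37 to 5.37 and 5.51 to 5.71, with falls in TAGLN, ACTG2 and MYLK, each held in 1 of 6 such analyses. These 8 markers did not move together: 4 had a negative and 4 a positive difference, with ACTA2 at 0.15 and its groups apart. Stromal markers (8) averaged 6.86 to 6.96 and 6.76 to 6.97, with PDGFRA lower (log2 −0.66) and COL1A1 higher (log2 0.56), both past the threshold in 6 of 6 such analyses. Endothelial markers (8) averaged 4.34 to 4.36 and 4.38 to 4.48, with 0 past the threshold and 0 at an unadjusted p under 0.05 in limma's test. Markers of blastocyst and trophoblast (10) averaged 4.56 to 4.59 and 4.56 to 4.62, with 0 past the threshold and 0 at an unadjusted p under 0.05. Of the defining uterine genes ESR1, PGR and MSX1 were measured, with means over all arrays of 5.40, 3.28 and 2.77. The 3′ minus 5′ log2 difference of the actin control, a measure of RNA quality, was −2.08 ± 0.22 and −1.70 ± 0.15 in the same order (SD, n = 3). Its two-sided exact permutation p was 0.1, the smallest that 3 against 3 arrays allow. The GAPDH control was at −0.20 ± 0.16 and 0.13 ± 0.17 (SD, n = 3, two-sided exact permutation p = 0.2). Human control probes may match hamster RNA poorly, which limits this measure. Its part in these values was not tested.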

How the data were processed

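The deposited values are log2 probe set summaries; the submitters' processing notes name RMA and Partek 6.6, without settings. The log base is not stated and was read as log2 from the range of the values. RMA brings arrays to a common distribution, so a change in total RNA is not visible (array medians were 4.18 to 4.20). After 68 control probe sets were left out, groups were compared across all 22215 probe sets by limma's moderated two-sided test (version 3.58.1, under R 4.3.3), no covariate, with Benjamini-Hochberg adjustment and a threshold of 0.05. A second fit took the brightest probe set of each of 11963 genes and gave the marker lists their adjusted p-values; all other p-values come from the fit over probe sets. Probe sets annotated to several genes (1043) or to none (2107) counted in the first fit only. The number of arrays limits the precision. No scan date or slide was used here, so no batch was tested.

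The members and gene lists were chosen with earlier results of these data known. Full values are given for the 4 conjugation members and members with an unadjusted p under 0.05; of the wider list, probe sets past the threshold and up to 3 genes per role with the smallest p were to be named, and others were named after their values were seen. The fit was checked on simulated data. No sequence was printed, since none was in the files used here.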

Additional observations from a re-analysis of the deposited data

How the results depend on the processing

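The 11 member probe sets described in full were recomputed under other normalizations, filters, fits and sets of arrays, and 182 of these values kept their direction and stayed short of the threshold, 5 changed sign and 2 passed. Both passes were IRF2, at −0.57 when replicate numbers formed a block (adjusted p = 0.0183) and −0.79 without interimplantation site 1 (0.0337); over all alternatives IRF2 ranged from −0.79 to −0.38, with an adjusted p up to 0.512. The sign changes were UBE2L6 with array weights (0.0075) and when single arrays were left out (−0.11 to 0.134), and HERC5 when single arrays were left out (−0.16 to 0.0719; 0.0115 without implantation array 1). ISG15 ranged from −0.26 to −0.15 (adjusted p = 0.253 to 0.606). With the replicate block 1 of 71 member probe sets passed the threshold, against 252 of all 22215 probe sets. Without interimplantation array 1 the member count was 1 of 71, against 227 of 22215. Under all other alternatives, including each other array left out, the member count was 0. Same-numbered arrays deviated together by correlations of 0.05, −0.0025 and 0.07, and other-numbered arrays by −0.07 to 0.02. With 3 arrays per group these values cannot decide whether the numbers mark pairs. No label says that they do, so the main fit used no pairs. Members at an unadjusted p under 0.05 numbered 4 of 38 without _x_at and _s_at probe sets (10.5%, against 8.95% of all). When single arrays were left out they numbered 5 to 8 of 71 (7.04% to 11.3%, against 8.6% to 11.1% of all). With only the brighter upper part of the array they made up 20% of 35, against 13% of all. The count over all probe sets moved from 235 to 57 without _x_at and _s_at probe sets, 148 at the brightest probe set per gene, 99 after averaging the probe sets of each gene, and 119 to 227 when single arrays were left out (119 without implantation array 1, 125 without interimplantation array 3, 130 without implantation array 3). With the mean of their probe sets PTPN11 (−0.10) and HLA-B (−0.15) did not pass, nor with the replicate block (adjusted p = 0.0506 and 0.0705); these alternatives for both genes were chosen after seeing the data. The brightness of human probes on hamster RNA limits what dim members can show.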

Other observations

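Over the 6 arrays, the 5 other genes at or above the median brightness whose values followed ISG15 most closely were SCAMP4, ASRGL1, SLC22A14, FAM193B and RPS14, with Pearson correlations of 0.987, 0.987, 0.985, 0.984 and 0.983. Over so few arrays and so many genes such values describe these arrays and carry no test. Since ISG15 itself stood apart between the groups, genes chosen for following it do so too. All 5 were lowest on implantation array 1, like ISG15, and their differences ran from −0.16 (ASRGL1) to −0.44 (FAM193B).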
